A study of Mus musculus with 3 samples.

Results

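Cd4 and 6 other genes of the T-cell surface, Cd2, Cd5, Cd6, Cd27, Cd96 and Trat1, were followed across 3 RNAseq libraries of sorted cells. The genes were chosen by their FPKM levels in these same columns, Cd4 because its ratio between M2 and CD4 was small for a T-cell gene, and they are 7 of 36835 genes with a level in the table. A gene level was the sum over its annotated transcripts, taking for each transcript the first row with a value in all 3 columns, and all 7 genes had such a row. Some genes have further rows with a value in fewer columns. Where adding them moves a value, it is also given with all rows summed, which for the lists and for genes other than the 7 was computed after the data were examined.

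The libraries were made from BALB/C mice carrying tumors inoculated into the kidney, from the renal carcinoma cell line Renca by the labels and from its derivative Renca Ch+ L+, marked with Cherry and luciferase, by the study's own account. M1 and M2 name type-1 and type-2 macrophages sorted from tumors by F4/80 and CD11b, and CD4 names T lymphocytes sorted by TCRbeta and CD4. Type-2 cells were gated as high for F4/80 and intermediate for CD11b, and type-1 cells the other way round. A total of 30 tumors and 4 spleens went into the libraries, harvested at day 16 by one label and day 14 by another. The T cells came from spleens by the extraction protocol, while their cell type label names tumors, and the age of the mice is not given in the labels. There was 1 library for each cell subset, so that no difference has a replicate check and no p-value is given. Each value is in FPKM as deposited, a fragment count scaled for transcript length and library size, and can be compared between genes because it is per length. From the level of single fragments, depth was estimated at 6.08e+07 fragments for the library labelled M2, 7.30e+07 for CD4 and 6.17e+07 for M1. The 95% intervals below are exact Poisson intervals on fragment numbers estimated with these depths, and cover counting error only.

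CD4 is the co-receptor that binds MHC class II and brings the kinase Lck to the T-cell receptor. CD2 binds CD48 in the mouse and strengthens adhesion to other cells, CD5 and CD6 are scavenger receptor family proteins that tune receptor signals, and CD6 binds Alcam. CD27 is a receptor of the TNF receptor family with CD70 as its ligand, CD96 binds Pvr and is shared by T and NK cells, and Trat1 encodes an adaptor that sits in the membrane beside the T-cell receptor. CD4 is not restricted to T cells, since dendritic cells and some tissue macrophages of mice carry it.

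Markers of the sorted cells go against the column headings. All 12 T-cell markers were above 10 FPKM in the column headed M2, with a summed level of 1901 FPKM, against 3.58 FPKM in that headed CD4 and 2.63 FPKM in that headed M1. The totals over all rows were 2049, 7.14 and 7.08 FPKM. All 12 macrophage markers were lower in M2 by at least 2-fold than in CD4 and in M1. Each library is referred to below by its label alone, as the library labelled M2, CD4 or M1, and every direction rests on that label.

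All 7 genes were highest in the library labelled M2. They lay above 83.9% to 98.9% of the genes detected there, and in the rows used 5 of them were below 1 FPKM in both other libraries. Above 1 FPKM were Cd4 in the library labelled CD4, at 15.2 FPKM, and Cd2 in that labelled M1, at 3.39 FPKM. Trat1 joined them once all rows were summed, at 1.64 FPKM in CD4 and 4.23 FPKM in M1, the latter above Cd2. In bulk RNA, fewer cells of a type and less RNA per cell cannot be told apart.

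Cd4 (ENSMUSG00000023274.7) lies on the reverse strand of chromosome 6 from 124814710 to 124838239 in build NCBIM37, which is also called mm9. Its level was 166 FPKM in the library labelled M2 (164 to 168), 15.2 FPKM in that labelled CD4 (14.7 to 15.7) and 0.870 FPKM in that labelled M1 (0.743 to 1.01). The 3 intervals did not overlap, and behind them stood an estimated 31421, 3440 and 167 fragments. The M2 to CD4 ratio, for which the gene was chosen, was 10.97 (10.6 to 11.4). Between the library labelled CD4 and that labelled M1 the ratio was 17.4 (14.9 to 20.5).

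Among the other 6 genes the levels in the library labelled M2 ran from Cd2 at 108 FPKM (106 to 111.0) down to Trat1 at 20.1 FPKM (19.5 to 20.7). Cd5 at 81.3 FPKM (79.7 to 82.9), Cd6 at 80.1 FPKM (78.8 to 81.5) and Cd27 at 78.8 FPKM (77.1 to 80.7) had overlapping intervals and cannot be put in order. Cd96 was lower, at 34.8 FPKM (33.8 to 35.8). This order rests on the rows used, since with all rows summed Trat1 was at 49.0 FPKM, above Cd96, and Cd5 was at 11066.5 FPKM, above Cd4, nearly all of it from 1 row.

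**Figure D1:**
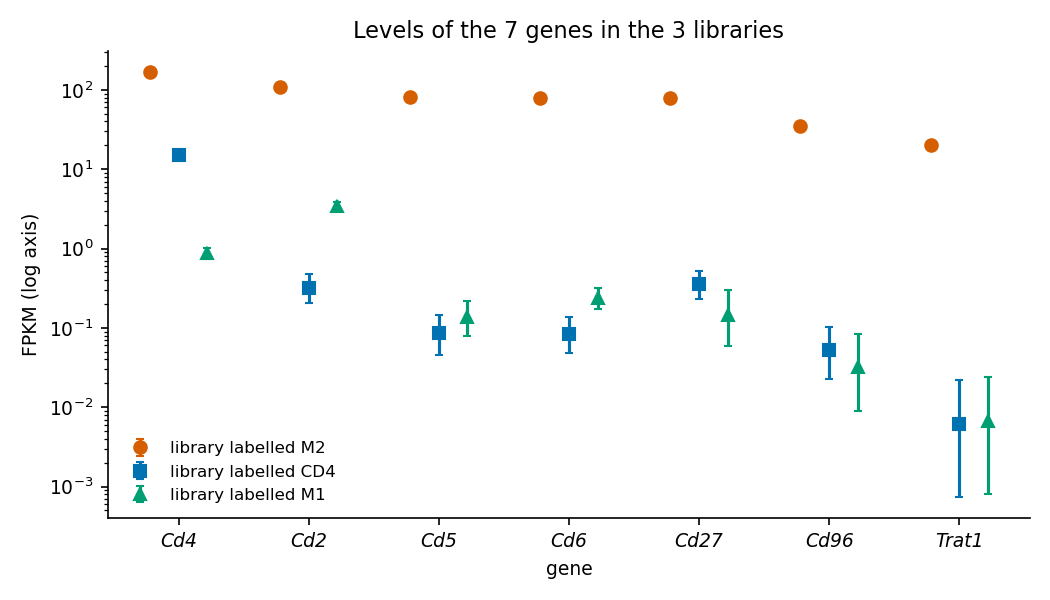
FPKM of each of the 7 genes (log axis) in the libraries labelled M2 (circles), CD4 (squares) and M1 (triangles), 1 library each; bars are 95% counting intervals on estimated fragments. Circles lie between 20.1 and 166 FPKM, while the square of Cd4 at 15.2 and the triangle of Cd2 at 3.39 stand above the other squares and triangles. Levels are of the rows used, and with all rows summed Trat1 was at 49.0, 1.64 and 4.23 FPKM.

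Cd2 (ENSMUSG00000027863.7), on chromosome 3 between 101079822 and 101091862, measured 0.320 FPKM in the library labelled CD4 (0.207 to 0.473) and 3.39 FPKM in that labelled M1 (2.98 to 3.85). It was therefore 10.6 times higher in the library labelled M1 (6.995 to 16.7), the opposite order to that of Cd4. An estimated 25 and 241 fragments stood behind these levels.

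Cd5 (ENSMUSG00000024669.7) and Cd6 (ENSMUSG00000024670.9), related receptors, lie close together on chromosome 19, from 10792633 to 10813464 and from 10863831 to 10904548. Cd5 was at 0.0861 FPKM (0.0458 to 0.147) in the library labelled CD4 and at 0.135 FPKM (0.0788 to 0.217) in that labelled M1, and these intervals overlap. Cd6 was at 0.0834 FPKM (0.0477 to 0.135) and 0.238 FPKM (0.174 to 0.318), respectively. The Cd6 intervals do not overlap, although the levels rest on 16 and 45 fragments. Cd6 was at 0.828 FPKM in M1 with all rows summed, and unchanged in CD4.

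Cd27 (ENSMUSG00000030336.8), on chromosome 6 between 125182640 and 125187028, measured 0.356 FPKM (0.231 to 0.526) in the library labelled CD4 and 0.145 FPKM (0.0585 to 0.300) in that labelled M1. Over all rows its level in M1 was 0.458 FPKM, and the direction turned, to a log2 difference of -0.10. The gene lies inside the span of Vamp1, on the opposite strand, and shares 0 exonic bases with it.

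Cd96 (ENSMUSG00000022657.9), on chromosome 16 between 46035770 and 46120364, measured 0.0526 FPKM in the library labelled CD4 and 0.0326 FPKM in that labelled M1, from an estimated 8 and 4 fragments. Trat1 (ENSMUSG00000030775.8), on the same chromosome between 48732023 and 48772251, gave 0.00617 and 0.00670 FPKM, with 2 fragments in each. At such counts no difference between the libraries labelled CD4 and M1 was detectable for either gene in the rows used. For Trat1 the rows left out were far higher, and the sum over all rows was 1.64 FPKM in CD4 and 4.23 FPKM in M1.

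Cufflinks assigned the level of each gene to annotated transcripts. All of the Cd4 level in each library stood on Cd4-001 (ENSMUST00000024044), which has 3108 bases in 10 exons. Cd4-201, an annotated form that starts at exon 2 and lacks exon 8, stood at 0 in M2 as well as in M1 and had no value in the column headed CD4. At the estimated depths, 3 fragments on Cd4-201 would give 0.0380 FPKM in M2 and 0.0374 in M1, if a value listed at 0 is not a failed estimate. Exon 8 has 119 bases, from 124817027 to 124817145 of chromosome 6, and codes for the segment that spans the membrane.

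In Cd4, Cd6 and Trat1 the annotated forms include or skip single exons, and the junctions that tell them apart are shown for this reason, with exons numbered as in Cd4-001, Cd6-001 and Trat1-202, as 15 bases on each side, 5′ to 3′ on the reverse strand, from the NCBIM37 reference transcripts, with the bases of the optional exon in capitals.
Cd4, exon 7 to exon 8 (Cd4-001): actccaggatccaggTTTTATCCAGAGGGG
Cd4, exon 7 to exon 9 (Cd4-201): actccaggatccaggcgccaggcagcacga
Cd6, exon 4 to exon 5 (Cd6-001, Cd6-004): gagtggtgtgctcagAGCACCAGTCCTGGC
Cd6, exon 4 to exon 6 (Cd6-005): gagtggtgtgctcaggctcccagagacatc
Cd6, exon 8 to exon 9 (Cd6-001, Cd6-005): ccattgccaaagaagCTCCTATGCTGTTCA
Cd6, exon 8 to exon 10 (Cd6-004): ccattgccaaagaagattcccagcgacacc
Trat1, exon 2 to exon 3 (Trat1-202): agaagcagagacgagATGAAATATACAGAT
Trat1, exon 2 to exon 4 (Trat1-201): agaagcagagacgagagttgatgaatatta

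Cd6 was spread over 3 transcripts in the library labelled M2. Cd6-001 (ENSMUST00000080292), with all 13 exons, was at 38.6 FPKM, or 48.2% of the gene. Cd6-004 (ENSMUST00000039043), at 18.5 FPKM and 23.1%, lacks exon 9, which has 117 bases, from 10867318 to 10867434 of chromosome 19, and is coding. Cd6-005 (ENSMUST00000025572), annotated as a retained intron, was at 23.0 FPKM and 28.7%. It lacks exon 5, of 303 coding bases from 10872166 to 10872468, which encodes the third scavenger receptor domain, the one that binds Alcam. Both exons are multiples of 3 bases long, so that skipping either leaves the reading frame. Cd6-004 lies wholly within Cd6-001, and 94.6% of Cd6-005 does, so that most fragments do not tell these forms apart and the split rests on the authors' model.

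Trat1 was split over Trat1-202 (ENSMUST00000099715), at 14.2 FPKM or 70.9% of the gene in the library labelled M2, and Trat1-201 (ENSMUST00000071647), at 5.84 FPKM or 29.1%. The latter lacks exon 3, of 37 bases from 48754362 to 48754398 of chromosome 16, and its annotated coding sequence starts in exon 2 in place of exon 1. These 37 bases are the whole difference between the 2 forms, which otherwise share 3609 bases. The split depends on the rows, since with all rows summed Trat1-202 held 88.1% and Trat1-201 11.9%. Cd2 and Cd27, with 4 and 6 annotated transcripts, each stood on a single transcript in the library labelled M2. Cd5 and Cd96 have only 1 annotated transcript each, so their level could not be spread. In the library labelled M1 the rows used put Cd27 on Cd27-002, a short form annotated as not coding, but with all rows summed 68.2% of its level there was on the coding Cd27-001.

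**Figure D2:**
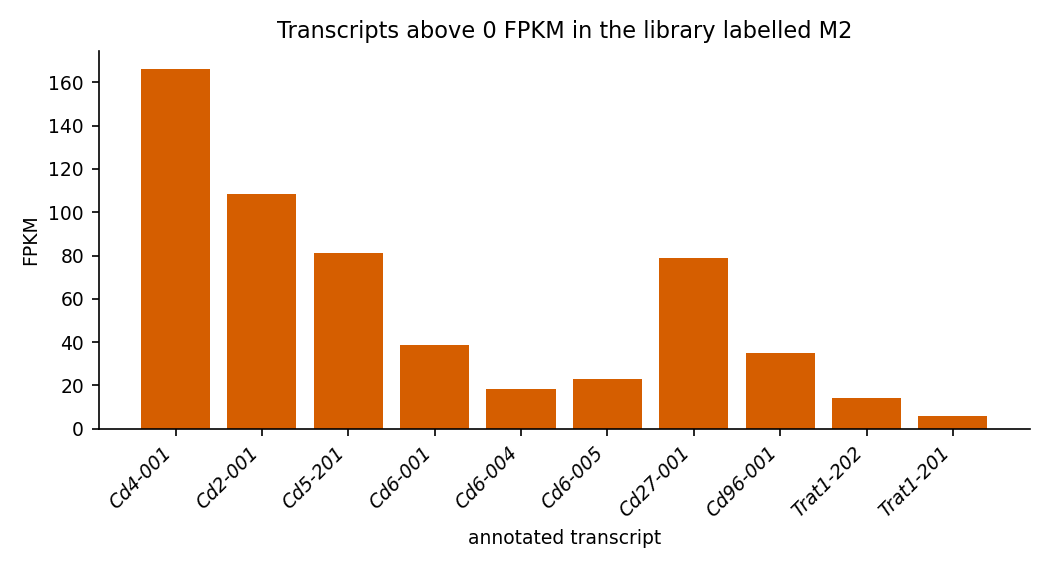
FPKM of each annotated transcript of the 7 genes that was above 0 in the library labelled M2, 1 library, so bars carry no error. Cd6 is spread over Cd6-001 at 38.6, Cd6-005 at 23.0 and Cd6-004 at 18.5 FPKM, Trat1 over 2 forms at 14.2 and 5.84 FPKM, and each other gene stands on 1 form, all in the rows used. Cd5 and Cd96 have only 1 annotated form.

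On the scale of log2(FPKM + 1), which understates the change of low genes, all 7 genes exceeded the library labelled CD4 by at least 2-fold in that labelled M2, beside 17.3% of the 12438 genes tested. Nothing is read from this count, since it was on this contrast that Cd4 was chosen and the 7 genes were known to be high in this column. The median difference of the 6 genes other than Cd4 was 6.05, and that of Cd4 was 3.37. All 7 were also at least 2-fold higher in M2 than in M1, beside 17.0% of 12443 genes, with Cd4 at 6.48 and a median of 5.57 for the other 6. The median over all genes tested was 0.12 for M2 minus CD4 and 0.10 for M2 minus M1.

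Between the libraries labelled CD4 and M1, a contrast that shares the library labelled CD4 with the one used to pick Cd4, 2 of the 7 genes reached 1 FPKM in either library, and both differed at least 2-fold. Cd4 was higher in the library labelled CD4 by 3.11 on the log2 scale, where 6.98% of 11587 genes were at least 2-fold higher. Cd2 was lower by that measure, at -1.73, where 7.24% were at least 2-fold lower. With all rows summed Trat1 also reached 1 FPKM, and at -0.988 it fell just short of 2-fold lower on this scale. The median of the 6 genes other than Cd4 was -0.03 and that of all genes tested -0.01.

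Levels were also expressed as a share of the level in the library labelled M2. For Cd4 the share was 9.12% in the library labelled CD4 and 0.523% in that labelled M1. For the other 6 genes it ran from 0.0307% for Trat1 to 0.452% for Cd27 in the library labelled CD4. In that labelled M1 it ran from 0.0334% for Trat1 to 3.12% for Cd2. With all rows summed Trat1 went from the lowest to the highest of the 6 in each, at 3.34% and 8.64%, and Cd4 was at 10.7% in CD4. T-cell markers, among them the CD3 chains and the receptor constant genes, had a median share of 0.121% in the library labelled CD4, and the highest, for Thy1, was 1.09%. Over all rows the highest was 2.69%, for Cd247. Cd3e was at 126, 0.141 and 0.131 FPKM in the libraries labelled M2, CD4 and M1. The share of Cd4 in the library labelled CD4 is the inverse of the ratio that it was chosen for, so its place above these markers is no result.

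A list of 21 other T-cell surface molecules was set beside Cd4, and 20 had values. Against CD4, 19 of them were at least 2-fold higher in M2, the exception being Lag3, and against M1 also 19, the exception being Tnfrsf9. Over all genes tested these shares were 17.3% and 17.0%. Nothing is read from these counts, since the list was written with earlier results of these data known. For the 19 with a ratio of CD4 to M1, it was above 17.4, the ratio of Cd4, in 0 genes. The highest was 5.90, for Slamf1, which rests on 28 and 4 fragments. Tnfrsf18 has no such ratio, being listed at 0 in M1 and at 0.198 FPKM in CD4. This ratio uses the level of Cd4 in the library labelled CD4, as does the one it was chosen for. The place of Cd4 is therefore no result. Lag3, Ly9 and Tnfrsf9 had a larger share than Cd4 in the library labelled CD4, while Slamf6, with an M2 to CD4 ratio of 10.7 (9.97 to 11.6), could not be ordered against it. Lag3, an inhibitory receptor that also binds MHC class II, was at 5.58 FPKM in the library labelled M2, 6.33 in CD4 and 1.25 in M1, and at 9.44 FPKM in M2 with all rows summed. Ly9, a receptor of the SLAM family found on many leukocytes, gave 42.5, 17.0 and 6.46 FPKM. As for Cd4, both were higher in the library labelled CD4 than in M1, Lag3 by 5.05 times (4.26 to 6.03) and Ly9 by 2.64 times (2.45 to 2.84). Il7r, the receptor chain for IL-7, followed the order of Cd2 instead, at 104, 0.882 and 8.15 FPKM, or 16.9 FPKM in M1 with all rows summed.

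**Figure D3:**
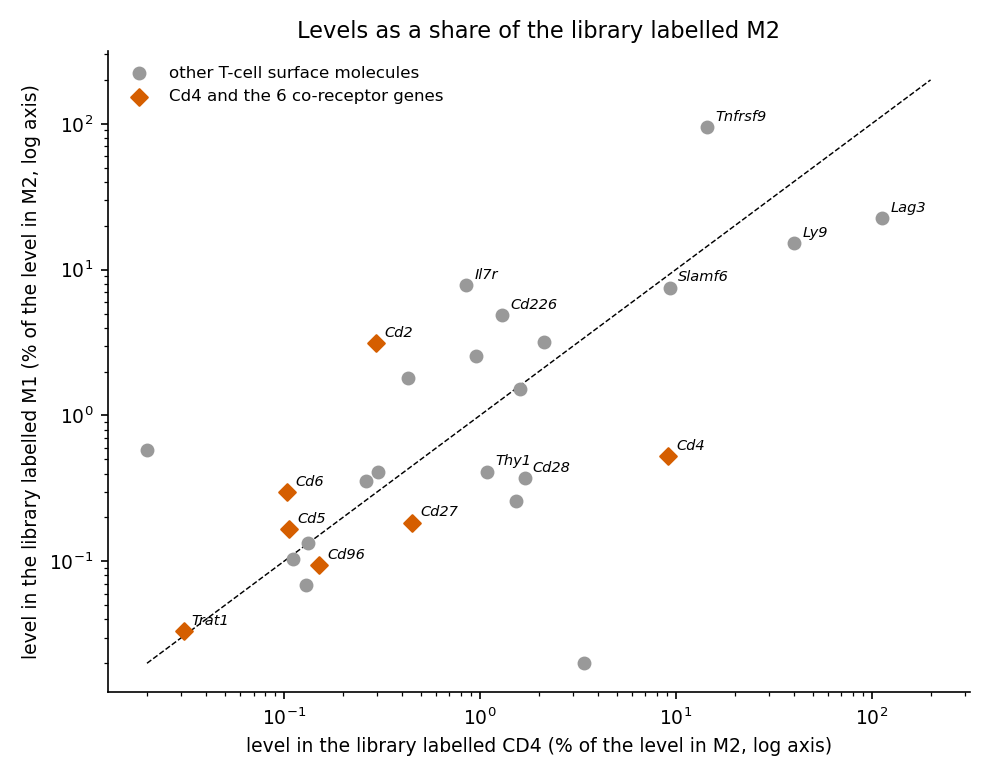
Level in the library labelled CD4 (x axis) against that labelled M1 (y axis), each as a percent of the level in M2 on log axes, for the 7 genes (diamonds) and 20 other T-cell surface molecules (circles); the dashed line marks equal shares, and genes listed at 0 are drawn at 0.02%. Cd4, at 9.12% and 0.523%, lies far below the line, and Cd2, at 0.295% and 3.12%, above it. Shares are of the rows used.

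Markers of other cells that can carry CD4 or CD2 were examined in the same libraries. These lists, like the others, were written with earlier results of these data known, so nothing is read from their counts. In the library labelled CD4, the macrophage markers summed to 13313 FPKM, against 8361 FPKM in M1 and 643 FPKM in M2. Over all rows these totals were 18864, 8369 and 654 FPKM. Of all 11587 genes tested between the libraries labelled CD4 and M1, 6.98% were at least 2-fold higher in CD4 and 7.24% lower. Of 9 markers of tissue-resident macrophages 7 were at least 2-fold higher in the library labelled CD4 than in M1 and 0 were lower. Their median log2 difference was 1.94, and with all rows summed 6 were higher and 0 lower. Folr2, a folate receptor of resident macrophages, was at 201 and 18.8 FPKM. Of the 12 general macrophage markers, 5 were at least 2-fold higher in CD4 than in M1 and 0 lower, among them Emr1, the gene for the sorting antigen F4/80, with 215 against 45.3 FPKM. C1qa was counted in both macrophage lists. The genes counted as higher moved in the same direction as Cd4 between the libraries labelled CD4 and M1. Cd4 was chosen partly by its level in the library labelled CD4, so this shared direction is no result. Their part in the level of Cd4 was not tested.

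Dendritic cell markers went the other way. Of the 5 tested, 4 were at least 2-fold lower in the library labelled CD4 than in M1 and 0 higher. Over all genes 7.24% were lower and 6.98% higher. All 8 together summed to 37.2 FPKM in CD4, 167 FPKM in M1 and 136 FPKM in M2. Ccr7 alone made up 122 FPKM of the sum in M2, and Itgax 124 FPKM of that in M1. In the library labelled CD4, Itgax made up 29.5 FPKM of the sum, while Batf3 was at 4.21, Zbtb46 at 1.21 and Flt3 at 0.227 FPKM. Of 8 markers of plasmacytoid dendritic cells, which also carry CD4, Siglech was at 0.280 FPKM there and Ccr9 was listed at 0. Siglech was at 0.874 FPKM in CD4 with all rows summed, while Tcf4 was at 20.0 and Klk1 at 5.60 FPKM in the rows used. The list summed to 124 FPKM in CD4, of which Bst2, a gene that interferon induces in many cells, made up 97.6 FPKM. The list summed to 72.4 FPKM in M1 and 133 FPKM in M2, and over all rows to 129 FPKM in CD4 and 173 FPKM in M2. Of its 3 genes that could be compared between CD4 and M1, Klk1 and Tcf4 were at least 2-fold higher in CD4. Their part in the level of Cd4 was not tested.

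Beside Cd2, which was higher in the library labelled M1 than in CD4, stood 5 of 6 monocyte markers that were also at least 2-fold higher in M1. The share of all genes at least 2-fold lower in CD4 than in M1 was 7.24%, and 6.98% were higher. The remaining monocyte marker, F13a1, went the other way, at 378 FPKM in CD4 and 54.3 FPKM in M1. Ly6c2, an antigen of inflammatory monocytes, was at 64.5 FPKM in M1 and 1.97 FPKM in CD4, and the dendritic cell lectin gene Cd209a was at 23.7 and 0.653 FPKM. The monocyte list summed to 669 FPKM in M1, 564 FPKM in CD4 and 264 FPKM in M2. F13a1 made up 378 FPKM of the sum in CD4. Over all rows the monocyte totals were 706, 566 and 304 FPKM. Among CD8 and NK markers, Klrb1c was at 3.18 FPKM in M1 and listed at 0 in CD4, or at 0.405 FPKM with all rows summed. The other 9 were below 1 FPKM in both, but over all rows Klrd1 was at 1.10 FPKM in M1. The list summed to 4.49 FPKM in M1, 0.706 FPKM in CD4 and 44.6 FPKM in M2. Over all rows the CD8 and NK totals were 5.08, 1.11 and 63.5 FPKM. All 8 B-cell markers were below 1 FPKM in both, summing to 0.482 and 0.547 FPKM, against 65.6 FPKM in M2. Over all rows the B-cell totals were 1.28, 2.13 and 91.3 FPKM, and Pax5 was at 1.48 FPKM in CD4. Neutrophil markers summed to 72.3 FPKM in M1, 36.3 FPKM in CD4 and 245 FPKM in M2, and 4 of the 5 compared were at least 2-fold lower in CD4 than in M1. The neutrophil total over all rows was 68.7 FPKM in CD4, and 1 marker was higher in CD4. The part of any of these in the level of Cd2 was not tested.

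**Figure D4:**
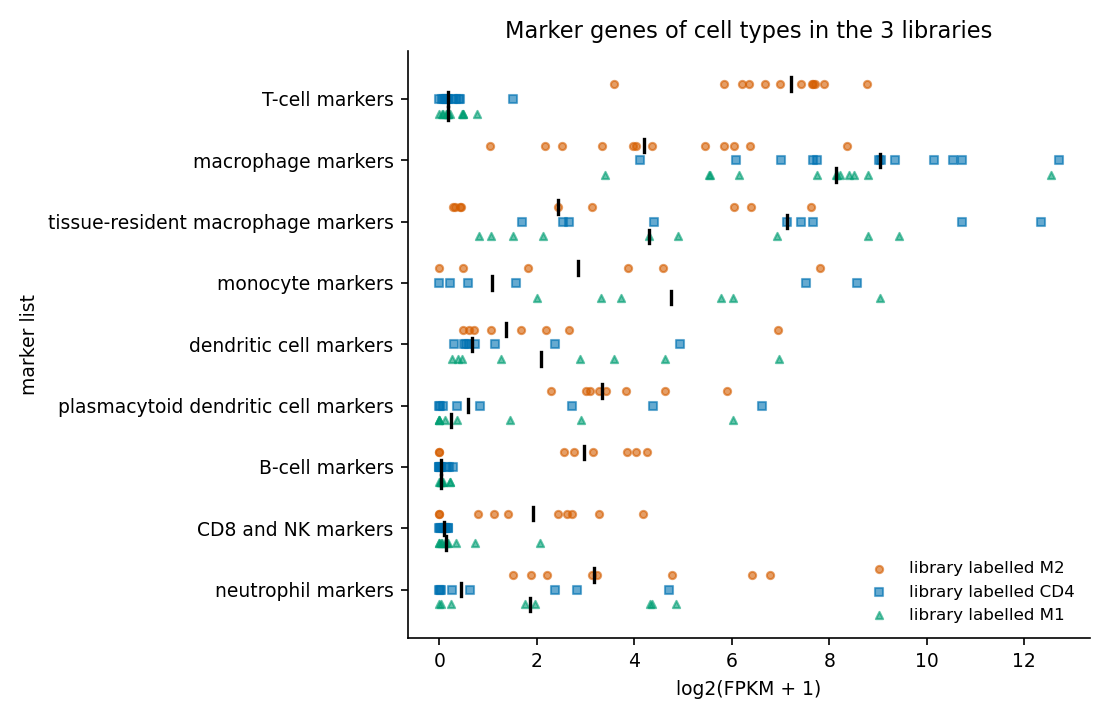
Values of log2(FPKM + 1) for the genes of 9 marker lists in the libraries labelled M2 (circles), CD4 (squares) and M1 (triangles), 1 point per gene, with a black bar at the list median. T-cell markers are high in M2 alone, macrophage markers are high in CD4 and M1, and markers of tissue-resident macrophages have their highest median in CD4.

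The ligands of these receptors were taken next. Of 10 ligand genes 8 reached 1 FPKM in the libraries labelled M2 or CD4, with 1 at least 2-fold higher in M2, 5 lower and 2 neither, beside 17.3% of all genes higher and 15.3% lower. MHC class II genes, whose products CD4 binds, were lowest in M2: H2-Aa was at 157 FPKM there, 910 FPKM in CD4 and 2224 FPKM in M1. Il16, which encodes a cytokine that binds CD4, was the gene higher in M2, with 68.9, 14.4 and 8.22 FPKM. Its direction turned with all rows summed, at 186 FPKM in M2 and 107660 FPKM in CD4. Alcam, the ligand of CD6, was at 3.20, 11.6 and 57.6 FPKM, and was 4.97 times higher in M1 than in CD4 (4.78 to 5.17). Cd72, a B-cell and macrophage lectin reported to bind CD5, was at 15.4, 84.0 and 16.0 FPKM. Cd48, the ligand of CD2, was at 54.9, 61.9 and 55.2 FPKM and Pvr, the ligand of CD96, at 17.5, 12.2 and 13.9 FPKM, so that neither differed 2-fold between any of the libraries. Cd70, the ligand of CD27, was below 1 FPKM in all 3.

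Of 12 intracellular partners 4 were at least 2-fold higher in M2 than in CD4 and 0 were lower, beside 17.3% and 15.3% of all genes, and with all rows summed the count was 5. In the rows used they were Lck, the kinase that CD4 holds at the membrane, Cd247, Sh2d2a and Traf5. Lck was at 209 FPKM in M2, 0.214 in CD4 and 0.408 in M1, and Cd247 was listed at 0 in both of the latter, or at 2.74 and 3.14 FPKM with all rows summed. The level of Lck with all rows summed was 0.771 FPKM in CD4 and 0.762 FPKM in M1. For Traf5, the difference was lost with all rows summed, at 60.9 and 71.2 FPKM. In the library labelled CD4, Cd4 was at 9.12% of its level in M2 and Lck at 0.103%, or 10.7% and 0.370% with all rows summed. The share of Cd4 is the inverse of the ratio that it was chosen for, so this gap is no result. The other 8, among them Cd2bp2 and Cd2ap, which bind the tail of CD2, and the phosphatase gene Ptpn6, were within 2-fold. Between CD4 and M1, 0 of the 9 partners tested differed 2-fold in either direction. Of 6 transmembrane adaptors all were at least 2-fold higher in M2 than in CD4 and in M1, beside 17.3% and 17.0% of all genes. Nothing is read from this count, since the list was written with earlier results known. Lat was at 200.2 FPKM in M2, and Pag1, which is widely expressed, had the smallest margin, at 13.9, 5.50 and 5.86 FPKM.

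**Figure D5:**
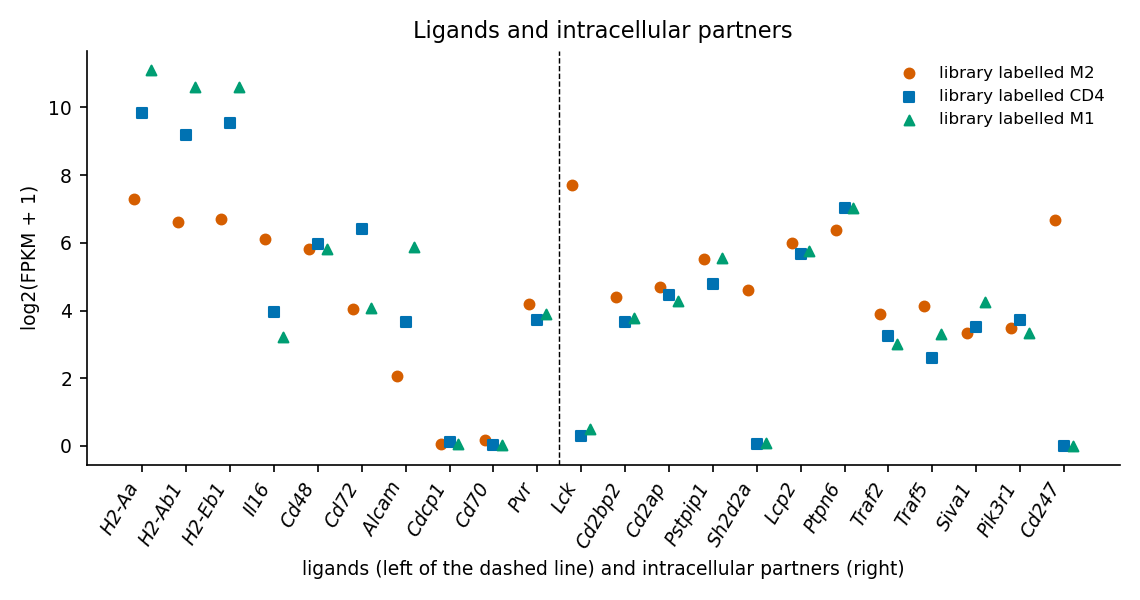
Values of log2(FPKM + 1) for 10 ligands (left of the dashed line) and 12 intracellular partners (right) in the libraries labelled M2 (circles), CD4 (squares) and M1 (triangles), 1 library each. Lck, Sh2d2a and Cd247 are high in M2 and near 0 in the others, the MHC class II genes are lowest in M2, and Alcam is highest in M1.

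Transcription factors that control Cd4 in T cells were counted from a list of 13. In M2, 8 were at least 2-fold higher than in CD4, 1 was lower and 4 were neither, beside 17.3% and 15.3% of all genes, and the counts were equal with all rows summed. Zbtb7b, which encodes ThPOK and holds T cells to the CD4 fate, was at 32.1, 6.88 and 22.3 FPKM in M2, CD4 and M1, and was 3.24 times higher in M1 than in CD4 (3.08 to 3.42). That difference was lost with all rows summed, at 29.3 FPKM in CD4 and 35.5 FPKM in M1. Runx3, a repressor of Cd4 in CD8 T cells, was lowest in M2, at 3.59, 16.5 and 23.4 FPKM. Tcf7, a factor of T-cell identity, was at 249.9 FPKM in M2, and Lef1, its relative, was also highest there, both being below 1 FPKM in the others.

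The genes with a profile most like that of Cd4 were sought among 7037 genes with at least 10 FPKM in 1 library, by the Euclidean distance between profiles of log2(FPKM + 1) over the 3 libraries, each centred on its mean. The nearest was Ly6c1, at a distance of 0.945, with 34.6 FPKM in M2, 4.95 in CD4 and 0 in M1. Of the 10 nearest, however, 8 were listed at 0 in M1, and rows left out held signal for some of them, with all rows summing in M1 to 49.3 FPKM for Ly6c1, 28.0 FPKM for Arid1a and 107 FPKM for Psmb8. Among the 6685 of these genes that were above 0 in all 3 libraries, a restriction added once the data had been seen, the nearest were Grap, at 51.1, 6.01 and 1.59 FPKM, Kbtbd11, at 58.2, 6.84 and 2.01 FPKM, and Fam65b, at 71.2, 2.51 and 1.03 FPKM. Cd28, Satb1 and Thy1 were also among the 10. Their distances ran from 1.6005 to 2.0015. With all rows summed, the ranking was made without that restriction, among 8365 genes. Grap, which encodes an adaptor of lymphocytes, was again among the 10 nearest, while Kbtbd11 and Ly6c1 were not. Fam65b, Cd28, Satb1 and Thy1 were among the 10 nearest in neither unrestricted ranking.

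The protein-coding genes on each side of Cd4 are Gpr162, 774 bases beyond its 3′ end, and Lag3, 16139 bases before its start, both on the same strand. Gpr162 was at 0.208 FPKM in M2, 2.18 in CD4 and 0.471 in M1, and was 4.64 times higher in CD4 than in M1 (3.68 to 5.92). With Lag3 at 5.05 times, both neighbours were higher in the library labelled CD4 than in M1, as Cd4 was. Over all genes tested 6.98% were at least 2-fold higher in CD4 and 7.24% lower. Cd4 was chosen partly by its level in the library labelled CD4, so the shared direction is no result. Genes of a wider window went both ways, as given further below. Neither neighbour overlaps Cd4 in the annotation.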

How the data were processed

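Total RNA of sorted cells was sequenced as paired reads, with 1 library per cell subset. Per the labels and the study's methods, the authors aligned reads to mm9 with TopHat and Bowtie and estimated transcript levels with Cufflinks guided by Ensembl; the labels also name Cuffdiff. The authors deposited FPKM values in 1 table of 135070 rows, in which a dash stands for no value. How the assemblies were joined is not given in the sources used here. The library kit named in the labels does not mark strand.

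Row identifiers were looked up in a GENCODE annotation of build NCBIM37, where 122505 matched. The first row per identifier with values in all 3 columns was kept, which leaves out rows found in fewer columns, and FPKM was summed to 36835 genes. Members and lists were chosen with earlier results of these data known. Genes with at least 1 FPKM in 1 of 2 libraries were compared on the log2(FPKM + 1) scale, and at least 2-fold was called. No test was run. Depth was estimated from the lowest peak of FPKM times length over 1285 transcripts of 2500 to 8000 bases, below -4.8 on the log2 scale, and gave 5.92e+07 to 7.50e+07 fragments over other length ranges. Fragment counts estimated from it gave exact Poisson intervals, and exact conditional intervals for ratios. Named genes were the members, genes of the lists, the nearest protein-coding gene on each side of a member and the 10 genes most like Cd4. Alternatives were all rows summed, a dash taken as 0, protein-coding transcripts only, the highest transcript only, median-ratio scaling, a pseudocount of 0.1 and no filter on low values. Calculations were tested on simulated data, using scipy 1.17.1, pandas 2.3.3, numpy 2.4.6 and, for plots, matplotlib 3.10.9 under Python 3.11.15.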

Additional observations from a re-analysis of the deposited data

Results flagged for a closer look

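Rows of the 7 genes that have no value in every column were left out of the levels above, and 12 values in such rows exceeded the level of 3 fragments on the annotated transcript. They are signals outside the main comparisons, and enter only where all rows are summed. In the column headed CD4, a second row of Cd4-001 stood at 2.61 FPKM, which is small beside its 15.2 FPKM in the row used, and a row of Trat1-202 stood at 1.63 FPKM. For Trat1 this is far above the 0.00617 FPKM of the rows used. In the column headed M1, a row of Trat1-202 stood at 4.23 FPKM, 2 rows of Cd6-001 at 0.388 and 0.202 FPKM, and 2 rows of Cd27-001 at 0.130 and 0.182 FPKM. In the column headed M2, 3 rows of Cd5-201 stood at 3.15, 10963 and 19.1 FPKM, and 2 rows of Trat1-202 at 7.34 and 21.6 FPKM. The row at 10963 FPKM was 135 times the level of Cd5 in the row used.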

How the results depend on the processing

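No paired analysis was possible because no subset had a second library, and no replicate could be left out. Over the 126 values of the 7 genes in the 3 contrasts under the alternatives, all but 1 kept their direction, the exception being Cd27 between CD4 and M1 with all rows summed, and 126 kept their side of the 2-fold limit. The M2 to CD4 ratio of Cd4, 10.97, was 9.36 with all rows summed and 10.5 with median-ratio scaling, both outside its counting interval, while its ratios to M1 stayed inside theirs. With a pseudocount of 0.1 the median log2 difference of the other 6 genes rose to 7.92 for M2 minus CD4 and 7.97 for M2 minus M1, by construction, since low levels weigh more. Between CD4 and M1 this median was -0.17 with that pseudocount and -0.43 with all rows summed. With all rows summed, the M2 minus CD4 difference of Cd5 went from 6.24 to 13.31. Levels of Trat1, Cd5, Cd6 and Cd27 that depend on the rows are given with the genes above. Counts of all genes at least 2-fold apart stayed within 1.5 times with all rows summed, with median-ratio scaling, with a pseudocount of 0.1 and with no filter; the other settings were not run for them. Levels of Trat1, Cd96 and Cd5 outside the library labelled M2 rest on 2 to 17 estimated fragments, which limits any order between the other libraries.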

Other observations

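The genes around Cd4 were examined in a window of 100 kb on each side, chosen after the levels of its neighbours were seen. It held 14 other protein-coding genes with values, of which 10 reached 1 FPKM in the libraries labelled CD4 or M1. Of these, 4 were at least 2-fold higher in CD4 and 3 lower, beside 6.98% and 7.24% of all genes. With all rows summed 3 were higher and 1 lower. The 3 that were higher either way were Leprel2, Gpr162 and Lag3. Leprel2, which encodes a collagen-modifying enzyme and lies next to Gpr162, was at 3.08 FPKM in CD4 and 0.999 FPKM in M1, a ratio of 3.08 (2.60 to 3.66). Cops7a, listed at 0 in M1 in the rows used, was within 2-fold with all rows summed, at 27.0 FPKM in CD4 and 24.6 FPKM in M1, as were Cdca3 and Mlf2. Tpi1, a gene of glycolysis that cells use broadly, was listed at 0 in CD4 either way, and a 0 in this table can be a failed estimate. Usp5 was at 28.0 FPKM in CD4 and 27.2 FPKM in M1.

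Besides Cd4, 14 genes of the 6685 above 0 in all 3 libraries with at least 10 FPKM in 1 fell at least 2-fold from M2 to CD4 and again at least 2-fold from CD4 to M1 on the log2(FPKM + 1) scale. With all rows summed 33 genes did so, of which 8 were among the 14. Among those 8 were Cxcr3, a chemokine receptor of activated T cells, at 19.1, 1.42 and 0.140 FPKM, Il21r, a cytokine receptor, at 37.1, 13.6 and 4.00 FPKM, and Ly9.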
